A study of Mus musculus with 12 samples.

Results

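The 9 genes examined encode the filament and microtubule skeleton of sensory neurons and were chosen by their symbols from the 22609 gene symbols counted in each sample. They were the neurofilament light, medium and heavy chains (Nefl, Nefm and Nefh), peripherin (Prph), alpha-internexin (Ina), the neuronal beta-tubulin Tubb3, the microtubule-associated protein Mtap1b (now named Map1b), the stathmin Stmn2 and the actin-binding protein advillin (Avil). RNA was sequenced in bulk from trigeminal ganglion (TG) neurons that had taken up the tracer WGA-AF488 from the tongue and were then sorted by flow cytometry.

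Athymic nude Balb/c mice, 6 to 8 weeks old, formed 4 groups of 3 samples. Males without a tumor are called MN and males with one MT, and the matching female groups are FN and FT. The tumor groups carried HSC3 cells, a human oral squamous carcinoma line, injected into the tongue. The labels state that normal mice were given no cells, whereas the methods of the study describe an injection of a normal oral keratinocyte line. The tracer followed on day 13 and ganglia were collected on day 15. Each sample was a pool of 4 ganglia, from 2 mice in the normal groups and from 4 mice, on the tumor side alone, in the tumor groups. Athymic mice lack mature T cells, and this holds for all 4 groups.

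Neurofilaments are polymers of a light, a medium and a heavy chain, joined by peripherin in peripheral neurons or alpha-internexin in many central ones, and they set the caliber of the axon. In sensory ganglia the heavy chain is abundant in large neurons with myelinated A fibers, whereas peripherin is abundant in small neurons with unmyelinated C fibers. Tubb3 is the beta-tubulin used to identify neurons, Mtap1b stabilizes microtubules in growing axons, Stmn2 binds free tubulin and is induced during axon growth, and advillin belongs to the gelsolin family and is enriched in peripheral sensory neurons.

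Promoter DNA was at hand for 5 of the 9 genes (Prph, Ina, Tubb3, Mtap1b and Avil) in the RefSeq table of mouse build GRCm38.p6, and not for Nefl, Nefm, Nefh and Stmn2. The 250 bases before the annotated start are shown for the pair whose levels tracked each other most closely (Prph and Tubb3), for Mtap1b, which was below MN in every FN library, and for Avil, whose log2 levels spread most widely. Capitals mark matches on either strand to a TATA box, searched as TATAAA. They also mark the box named for its letters CCAAT. The third motif marked is the GC box, searched as GGGCGG. Sequences run 5′ to 3′ on the strand of the gene, which is the plus strand for Prph (chr15:99054924-99055173), Tubb3 (chr8:123411303-123411552) and Avil (chr10:127000459-127000708) and the minus strand for Mtap1b (chr13:99516603-99516852).
Prph: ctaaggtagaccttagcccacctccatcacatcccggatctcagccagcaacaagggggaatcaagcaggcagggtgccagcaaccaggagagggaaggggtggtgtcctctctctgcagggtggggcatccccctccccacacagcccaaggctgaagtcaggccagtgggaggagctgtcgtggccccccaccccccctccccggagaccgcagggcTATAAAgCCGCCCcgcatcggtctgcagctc
Tubb3: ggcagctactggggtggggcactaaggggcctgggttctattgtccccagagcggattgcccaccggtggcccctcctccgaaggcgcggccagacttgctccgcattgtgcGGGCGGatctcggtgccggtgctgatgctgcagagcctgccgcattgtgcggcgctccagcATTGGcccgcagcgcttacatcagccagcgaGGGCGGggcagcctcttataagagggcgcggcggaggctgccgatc
Mtap1b: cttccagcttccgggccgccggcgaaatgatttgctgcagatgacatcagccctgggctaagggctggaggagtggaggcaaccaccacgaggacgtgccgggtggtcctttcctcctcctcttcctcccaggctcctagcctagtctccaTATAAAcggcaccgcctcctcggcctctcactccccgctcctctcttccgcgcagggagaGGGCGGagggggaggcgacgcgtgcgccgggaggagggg
Avil: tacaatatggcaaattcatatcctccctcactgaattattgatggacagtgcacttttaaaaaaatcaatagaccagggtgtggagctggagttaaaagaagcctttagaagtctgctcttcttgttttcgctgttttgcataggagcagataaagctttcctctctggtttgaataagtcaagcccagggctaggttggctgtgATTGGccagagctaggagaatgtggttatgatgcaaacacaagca

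Prph held a TATA box at -31 from the start and a GC box at -24, directly downstream. Tubb3 held a CCAAT box at -77 and GC boxes at -138 and -46. Mtap1b held a TATA box at -99 and a GC box at -39, and Avil held a CCAAT box at -45 and no GC box. In the 32851 promoters of the table, the TATA box letters occurred in 12.4%, those of the CCAAT box in 33.8% and those of the GC box in 32.7%. GC content was 65.2%, 68.0% and 66.4% in Prph, Tubb3 and Mtap1b, and 42.0% in Avil. Matches between the motifs did not overlap, and no use of these letters in the neurons was measured.

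Gene reads per library ranged from 4592891 to 8922011, and 133 to 70109 of them fell on any 1 of the 9 genes. All 6 pan-neuronal markers (Uchl1, Snap25, Rbfox3, Elavl4, Pirt and Syt1) were above 0 in every library, with a summed level of 4235 to 7996 CPM (counts scaled to the total of gene reads). The libraries FN2, FT2 and FT3 stood apart. Counts in the row for alignments that were not unique made up 56.0%, 68.4% and 52.6% of all counts there, against 43.0% to 45.5% in the other 9. Trpv1, the capsaicin receptor of C-fiber neurons, was at 11.4, 5.44 and 35.1 CPM in FN2, FT2 and FT3, against 150.2 to 263 CPM. Other C-fiber genes were mixed. Tac1 (2910 and 1668 CPM) and Calca (11272 and 7157 CPM) were higher in FN2 and FT3 than in any other library. Scn10a, Mrgprd, P2rx3 and Trpa1 were lower in FN2, FT2 and FT3 than in the other 9. Fold changes that moved with these libraries are therefore also given without FN2 and FT2 (10 libraries) and without FT3 as well (9 libraries). With 9 libraries FT1 stood alone for its group and was assumed to vary like the other groups.

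All 9 genes were measured in every library, and 8 of them were abundant. On a scale corrected for exon length (RPKM, CPM divided by the exon length in kilobases), the mean level over the 12 libraries was 2112 ± 497 for Tubb3 (SD, n = 12), which ranked 10 of 21627 genes. Prph followed at 1564 ± 355 RPKM (rank 16) and Stmn2 at 1245 ± 303 RPKM (rank 24). Then came Nefl at 874 ± 195 RPKM, Mtap1b at 545 ± 159 RPKM, Avil at 342 ± 134 RPKM, Nefm at 305 ± 127 RPKM and Nefh at 216 ± 185 RPKM. Ina was far lower, at 13.6 ± 3.02 RPKM (rank 4288).

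Tubb3 was above Prph, and Nefh above Ina, in 12 of 12 libraries. Prph and Stmn2, Avil and Nefm, and Nefm and Nefh were neighbors whose means differed by less than the larger of their SDs, although Avil was above Nefm in 9 of the 9 libraries without FN2, FT2 and FT3. Nefl (chr14:68701920-68707152, plus strand of mm9) and Nefm (chr14:68700647-68742903, minus strand) share 1108 bases of annotated exon on opposite strands in GENCODE M1, 32.8% of Nefl and 19.2% of Nefm. The strand setting of the count was not given in the sources used here, so reads of that stretch could be assigned to either gene or to none. Ina likewise shared 456 exon bases with Nt5c2, and Avil 165 with Tsfm.

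**Figure D1:**
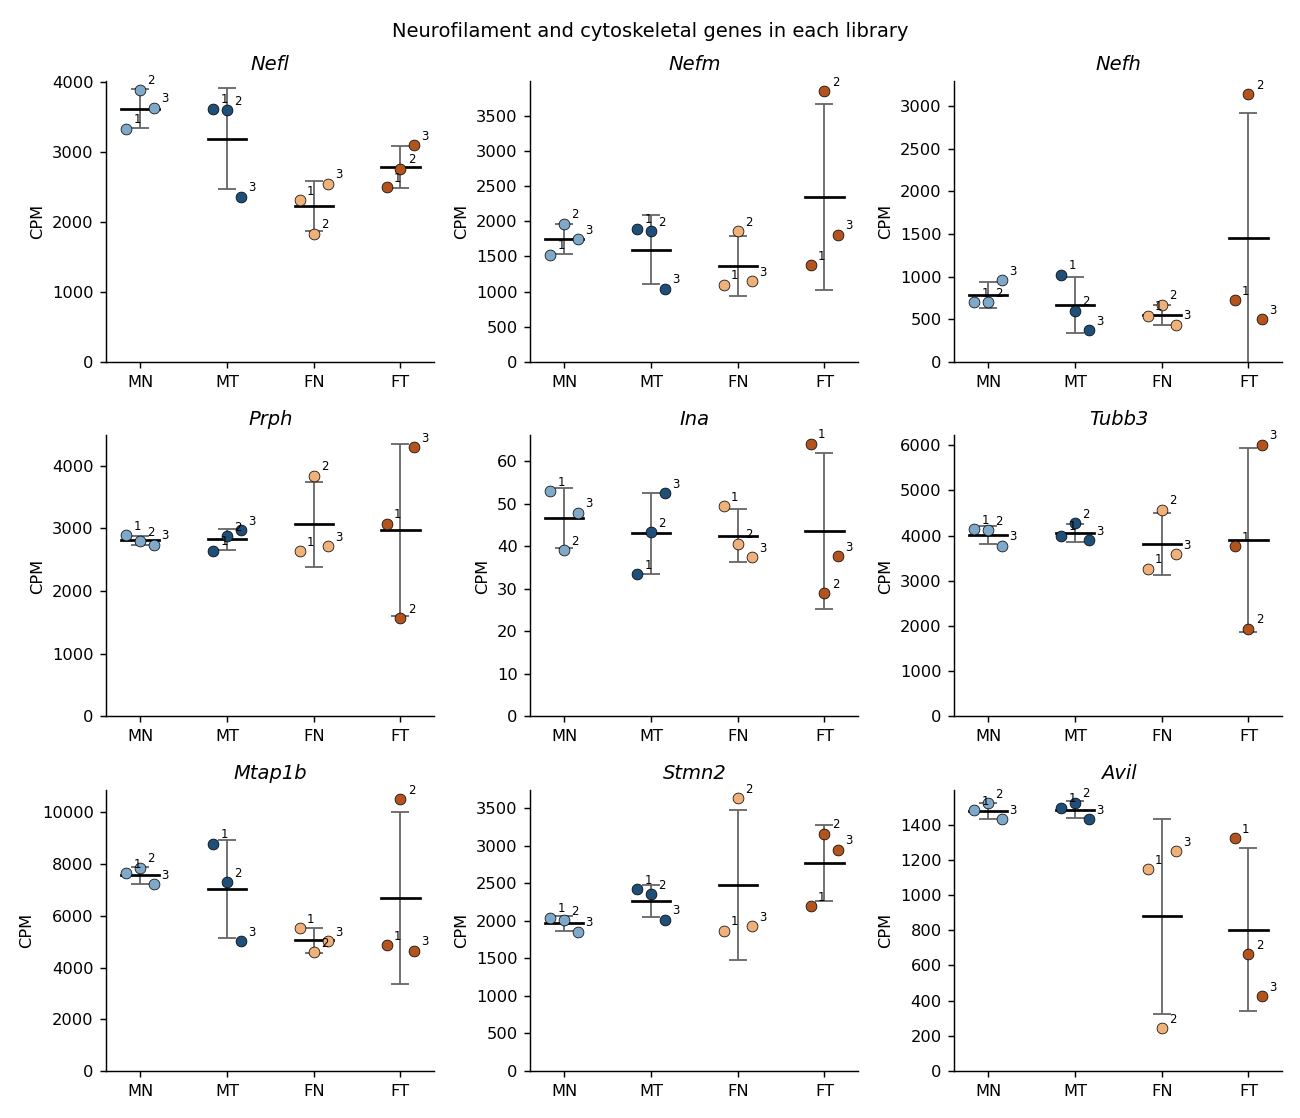
CPM of the 9 genes by group, with 1 point per library (numbered by replicate), the mean as a line and the SD (n = 3) as bars, cut at 0. The male points of Prph and Avil lie close together, and FT replicate 2 is the highest point for Nefm, Nefh and Mtap1b and the lowest for Prph, Ina and Tubb3.

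Nefl, the chain on which neurofilaments assemble, had a lower CPM in every FN library than in any MN library. It stood at 3331, 3886 and 3633 CPM in MN and at 2308, 1830.3 and 2544 CPM in FN. These groups did not overlap in either direction for 19.8% of genes tested. In the edgeR fit of all 12 libraries given below, Nefl was not called (adjusted p = 0.81). In the tumor groups it stood at 3615, 3594 and 2362 CPM in MT and at 2493, 2761 and 3096 CPM in FT. The third MT library therefore lay within the range of the FN libraries, below the rest of the male libraries.

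Nefm, the medium chain, stood at 1527, 1964 and 1747 CPM in MN and at 1892, 1862 and 1038 CPM in MT. It stood at 1098, 1857 and 1149.9 CPM in FN and at 1374, 3846 and 1808 CPM in FT. FN1 and FN3 were below every MN library, whereas FN2 lay within the MN range and FT2 was above every other library.

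Nefh, the heavy chain, spread more than the other filament genes. It stood at 698, 698 and 959 CPM in MN and at 1020.0, 602 and 369.9 CPM in MT. It stood at 543, 672 and 434 CPM in FN and at 726, 3134 and 498 CPM in FT. The ratio of the highest to the lowest library was 8.47, and it was 2.76 without FN2, FT2 and FT3.

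Prph, the peripheral filament of C-fiber neurons, was nearly level across the male libraries. It stood at 2886, 2797 and 2738 CPM in MN and at 2641, 2874 and 2966 CPM in MT. It stood at 2634, 3835 and 2712 CPM in FN and at 3069.9, 1564 and 4289.5 CPM in FT. The highest and lowest library differed 2.74-fold over all 12, and 1.17-fold without FN2, FT2 and FT3.

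Ina, the alpha-internexin gene, showed no separation by group. It stood at 52.9, 39.1 and 47.9 CPM in MN, at 33.5, 43.3 and 52.5 CPM in MT, at 49.4, 40.6 and 37.4 CPM in FN and at 64.1, 29.0 and 37.6 CPM in FT. Every pair of groups overlapped.

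Tubb3 followed Prph from library to library. It stood at 4141, 4122 and 3772 CPM in MN and at 3994, 4273 and 3902 CPM in MT. It stood at 3269.6, 4576 and 3582 CPM in FN and at 3762, 1943 and 6006 CPM in FT. The root mean square distance between the centered log2 CPM profiles of Prph and Tubb3 was 0.114 over the 12 libraries, the smallest of any pair of the 9 genes.

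Mtap1b, which binds and stabilizes axonal microtubules, had Nefl as its nearest profile among the genes examined. Their root mean square distance was 0.304 in log2 CPM, and that of Nefm and Mtap1b was 0.358. The profiles of Mtap1b and Nefl parted in FT2. There Mtap1b was above every MN library, whereas Nefl, at 2761 CPM, was below every MN library. Mtap1b stood at 7639.7, 7858 and 7217 CPM in MN and at 8796, 7301 and 5025 CPM in MT. It stood at 5531, 4583 and 5021 CPM in FN and at 4861, 10509.5 and 4644 CPM in FT. All FN libraries were below all MN libraries, but Mtap1b was not called in the edgeR fit of all 12 libraries (adjusted p = 0.81). MT3 was the lowest male library, and FT2 was the highest of the 12.

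Stmn2 stood at 2044, 2009.9 and 1855 CPM in MN and at 2422, 2354 and 2017 CPM in MT. It stood at 1870.2, 3635 and 1929.9 CPM in FN and at 2196, 3158 and 2945 CPM in FT. The highest values were those of FN2, FT2 and FT3.

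Avil, the advillin gene, was the steadiest of the 9 genes in males and was spread widely in females. It stood at 1483, 1523 and 1431 CPM in MN and at 1497, 1526 and 1432 CPM in MT. It stood at 1148, 242 and 1249 CPM in FN and at 1322, 663 and 425 CPM in FT. The low values were again those of FN2, FT2 and FT3, and Avil differed 6.30-fold between the highest and lowest library over all 12 and 1.33-fold without these 3.

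The make-up of the filament genes was described by the share of each in the summed RPKM of Nefl, Nefm, Nefh, Ina and Prph. In MN the shares were 48.8% ± 2.59 for Prph, 34.6% ± 1.61 for Nefl, 9.76% ± 0.929 for Nefm, 6.37% ± 1.21 for Nefh and 0.468% ± 0.0833 for Ina (SD, n = 3). The share of Prph was 46.0% and 49.9% in MT1 and MT2 and 61.7% in MT3. It was 58.0%, 66.3% and 57.6% in FN and 58.3%, 26.9% and 62.8% in FT. By RPKM, peripherin transcripts were thus at 1.30 to 1.57 times Nefl transcripts in MN, MT1 and MT2. They were at 1.93 to 3.80 times in MT3, FN, FT1 and FT3, and at 1.03 times in FT2. The Nefl length included the 1108 bases shared with Nefm. If reads of that stretch went to Nefm or to neither gene, the Nefl level would be too low and these ratios too high, which was not tested.

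FT2 had a different make-up from the other 11 libraries. Nefh took 25.2% of the summed RPKM there, against 3.41% to 8.30% elsewhere, and Nefm took 21.4%, against 6.96% to 10.7%. The ratio of Nefh to Nefl was 0.961 per length in FT2 and 0.133 to 0.311 in the others. In FN2 the Nefl share was 17.5%, the lowest of the 12.

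**Figure D2:**
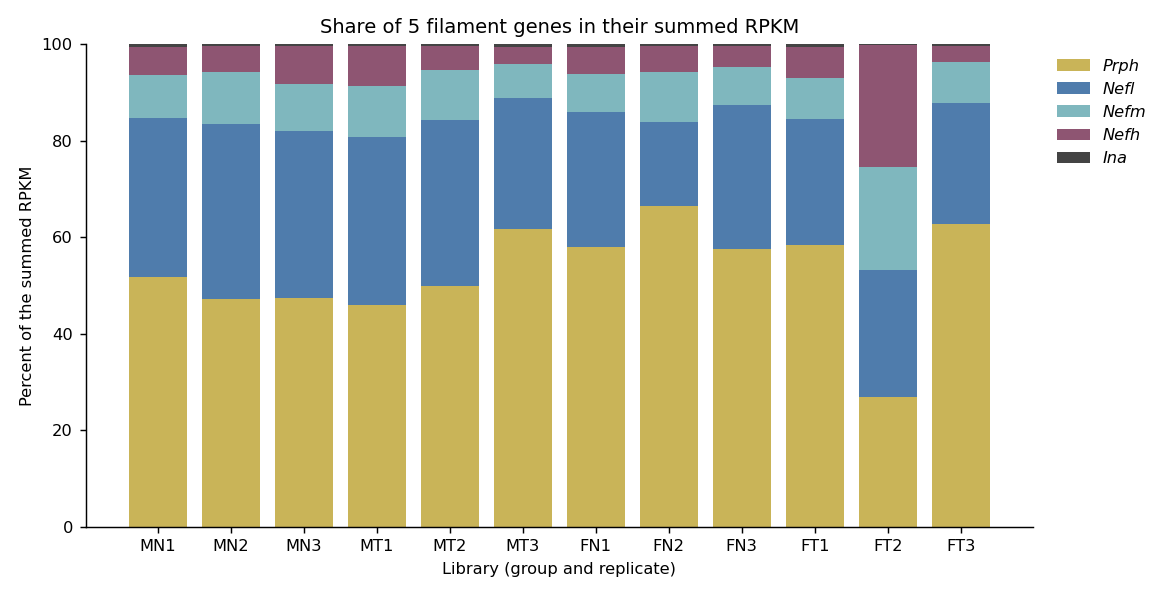
Stacked bars of the percent that each of 5 filament genes took of their summed RPKM, for each of the 12 libraries. Prph is the largest share in every library by these lengths, which keep for Nefl the bases shared with Nefm, but in FT2 it is 26.9% while Nefh reaches 25.2%.

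The first comparison asked whether normal lingual neurons differed between the sexes (FN versus MN, genes on X and Y left out). In the fit of all 12 libraries, in which a gene was called at an adjusted p under 0.05 over all genes tested, 0 of the 9 genes and 0% of 13360 genes were called by the quasi-likelihood test of edgeR. At an unadjusted p under 0.05 the counts were 0 of 9 and 744 genes, and DESeq2 called 20 genes, none of the 9. Nefl had a mean of 2227 ± 364 CPM in FN and 3617 ± 278 CPM in MN (SD, n = 3), a ratio of 0.616, and a fitted log2 fold change of -0.61 ± 0.32 (SE, edgeR adjusted p = 0.81). Mtap1b had 5045 ± 474 against 7571 ± 326 CPM, a ratio of 0.666 and a log2 fold change of -0.49 ± 0.42 (adjusted p = 0.81).

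Avil had 879.7 ± 555 against 1479 ± 46.2 CPM, a log2 fold change of -0.74 ± 0.47 (edgeR adjusted p = 0.81) that became -0.36 ± 0.32 with the 10 libraries other than FN2 and FT2. The other log2 fold changes were -0.37 ± 0.65 for Nefh, -0.19 ± 0.50 for Nefm, -0.029 ± 0.32 for Ina, 0.063 ± 0.38 for Tubb3, 0.27 ± 0.37 for Prph and 0.50 ± 0.40 for Stmn2. By the criteria of the study (unadjusted p under 0.05, fold change over 1.5, mean RPKM over 5 in either group), 0 of the 9 genes and 3.69% of genes tested passed in this fit. With 10 libraries Nefl and Nefm passed, beside 2.27% of genes tested, and with 9 libraries Nefh did too, beside 3.18%. Every FN library was below every MN library for Nefl, Nefh, Mtap1b and Avil, 4 of the 9 genes, and the groups did not overlap in either direction for 19.8% of genes tested. After TMM scaling Nefh overlapped and 3 remained.

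Without FN2 the 3 neurofilament chains gave values more alike. FN1 and FN3 lay below every MN library for 7 of the 9 genes (all but Ina and Stmn2), as did 13.9% of genes tested. In a fit of FN1, FN3 and the 3 MN libraries alone, chosen after seeing the data, 5 of the 9 genes were called, all lower in FN, whereas 5.53% of genes tested were called in either direction and 1.55% were called lower. The log2 fold changes were -0.63 ± 0.086 for Nefl (edgeR adjusted p = 0.00152), -0.69 ± 0.10 for Nefm (adjusted p = 0.00246), -0.73 ± 0.14 for Nefh (adjusted p = 0.00799), -0.57 ± 0.076 for Mtap1b (adjusted p = 0.0012) and -0.35 ± 0.081 for Avil (adjusted p = 0.0233). In the same fit the values were -0.28 ± 0.079 for Tubb3 (adjusted p = 0.0585), -0.12 ± 0.073 for Prph, -0.10 ± 0.079 for Stmn2 and -0.15 ± 0.16 for Ina, none of which passed. With all 10 libraries other than FN2 and FT2 in 1 fit, none of the 9 was called, and Nefl was at -0.63 ± 0.25 (adjusted p = 0.72).

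When all 12 libraries were kept and weighted by quality (limma-voom with sample weights), 3 of the 9 were called and each was lower in FN: Nefl at -0.63 (limma adjusted p = 0.00995), Nefm at -0.67 (adjusted p = 0.033) and Mtap1b at -0.54 (adjusted p = 0.0357). That fit called 5.99% of genes tested, and 1.03% in the lower direction.

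**Figure D3:**
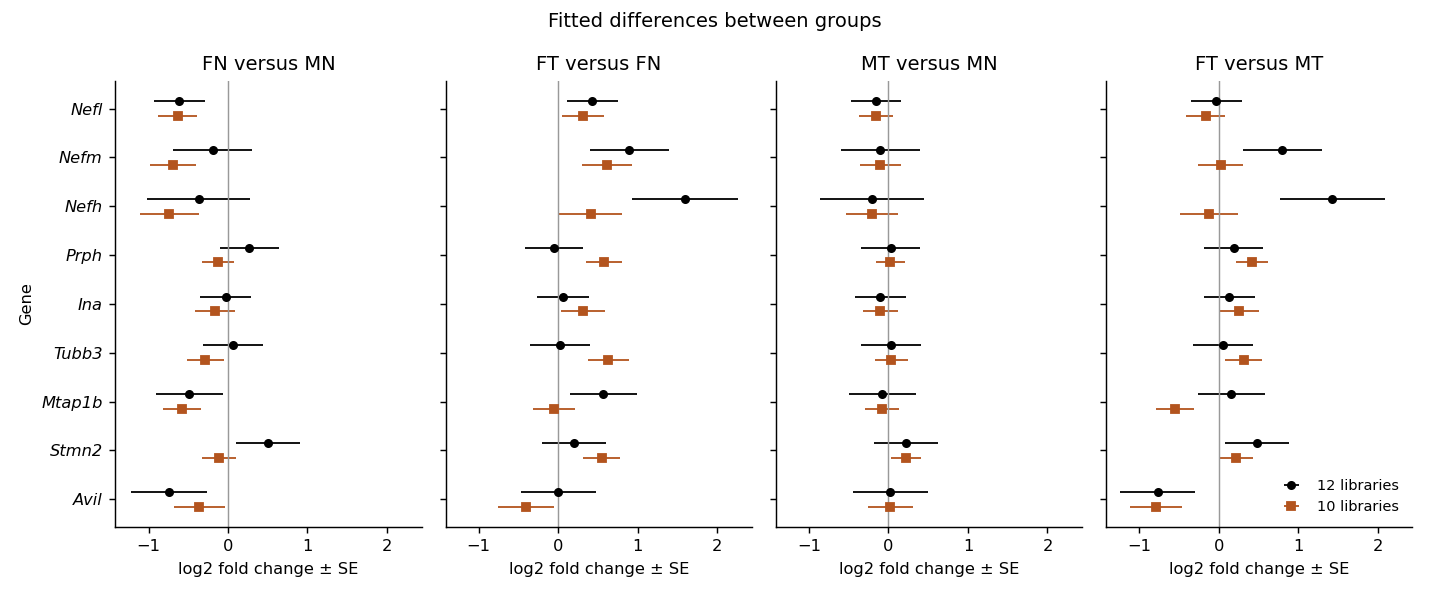
Fitted log2 fold changes ± SE of the 9 genes in 4 comparisons, with all 12 libraries (circles) and with the 10 libraries other than FN2 and FT2 (squares). Nefl stays near -0.6 in FN versus MN in both fits, whereas Nefh in FT versus FN goes from 1.60 to 0.41 once the 2 libraries are left out.

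Some markers of neurons as a whole, and markers of non-neuronal cells, also differed between FN and MN. The 6 pan-neuronal markers summed to 7242 to 7645 CPM in MN and to 5880 to 7064 CPM in FN, so that the sums did not overlap, and Snap25 and Pirt were below MN in every FN library. The lowest sum was that of FN2, where the pan-neuronal markers were mixed. Uchl1 was at 3609 CPM there, against 2199 to 2467 CPM in MN, and Rbfox3 at 293 CPM, against 185 to 213 CPM. In the fit of FN1, FN3 and MN alone 6 of 6 had a value below 0 (median -0.16), none of them called. The 8 macrophage markers summed to 15.7 to 30.9 CPM in MN and to 109.6 to 251 CPM in FN, with 5 of 8 (C1qa, C1qb, C1qc, Cd68 and Cd74) above MN in every FN library. The 6 satellite glia markers summed to 4438 to 5449 CPM in MN and to 8665 to 17313 CPM in FN, with 2 of 6 (Apoe and Sparc) not overlapping, and none was at 0 in any library. MT3, the male library with the lowest Nefl, Nefm, Nefh and Mtap1b, had a macrophage sum of 219 CPM, against 8.80 and 14.9 CPM in MT1 and MT2. Of the macrophage markers only Cx3cr1 was at 0 in any library, in MT1. In FN1 and FN3 against MN, 7 of 7 macrophage markers tested, 2 of 5 satellite glia, 4 of 6 endothelial, 3 of 6 pericyte and smooth muscle, 2 of 6 fibroblast, 1 of 5 Schwann cell and 0 of 5 neutrophil markers were called, all higher in FN. Of all genes tested, 5.53% were called in that fit, and 19.8% had FN and MN libraries that did not overlap. With 10 libraries no marker was called. The part of these cells in the neurofilament values was not tested, and in a bulk sample fewer neurons of a type cannot be told apart from less RNA per neuron. The paper reports that sorting yielded more cells from female than from male samples, and gives RNA integrity as group means. The part of cell yield and RNA integrity in these values was not tested.

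Among 8 markers of myelinated A-fiber neurons, Ntrk3 and Cntnap2 were lower in every FN than in every MN library, and the summed level was 376 to 454 CPM in FN and 491 to 599.9 CPM in MN. In FN1 and FN3 against MN, Pvalb and Spp1 were called lower, at a log2 fold change of -0.82 ± 0.18 (edgeR adjusted p = 0.0211) and -0.94 ± 0.18 (adjusted p = 0.0087). In FN2, left out of that fit, both were above every MN library. Pvalb was at 75.3 CPM there, against 30.7 to 41.2 CPM in MN, and Spp1 at 135 CPM, against 47.7 to 74.9 CPM. Among 9 markers of C-fiber and nociceptive neurons, Scn10a, Scn11a, Mrgprd and P2rx3 were lower in every FN library and Tac1 was higher. The fit of FN1, FN3 and MN alone called 3 of them lower as well, Scn10a at -0.60 ± 0.091 (edgeR adjusted p = 0.00247), Scn11a at -0.67 ± 0.12 (adjusted p = 0.00574) and P2rx3 at -0.43 ± 0.090 (adjusted p = 0.0144). Thus 2 of 8 A-fiber and 3 of 9 C-fiber markers were called lower, beside 1.55% of all genes tested. Over all genes tested, FN and MN libraries did not overlap for 19.8%. In MT3, the A-fiber markers Pvalb and Ntrk3 were at 10.1 and 24.7 CPM, against 30.7 to 42.8 CPM and 44.1 to 51.6 CPM in the other 5 male libraries. Esrrg, Cntnap2, Kcns1 and Spp1 were also lowest of the male libraries in MT3. Ntrk2 (139.6 CPM) and Runx3 (2.47 CPM) were not, and lay within the range of the other 5.

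**Figure D4:**
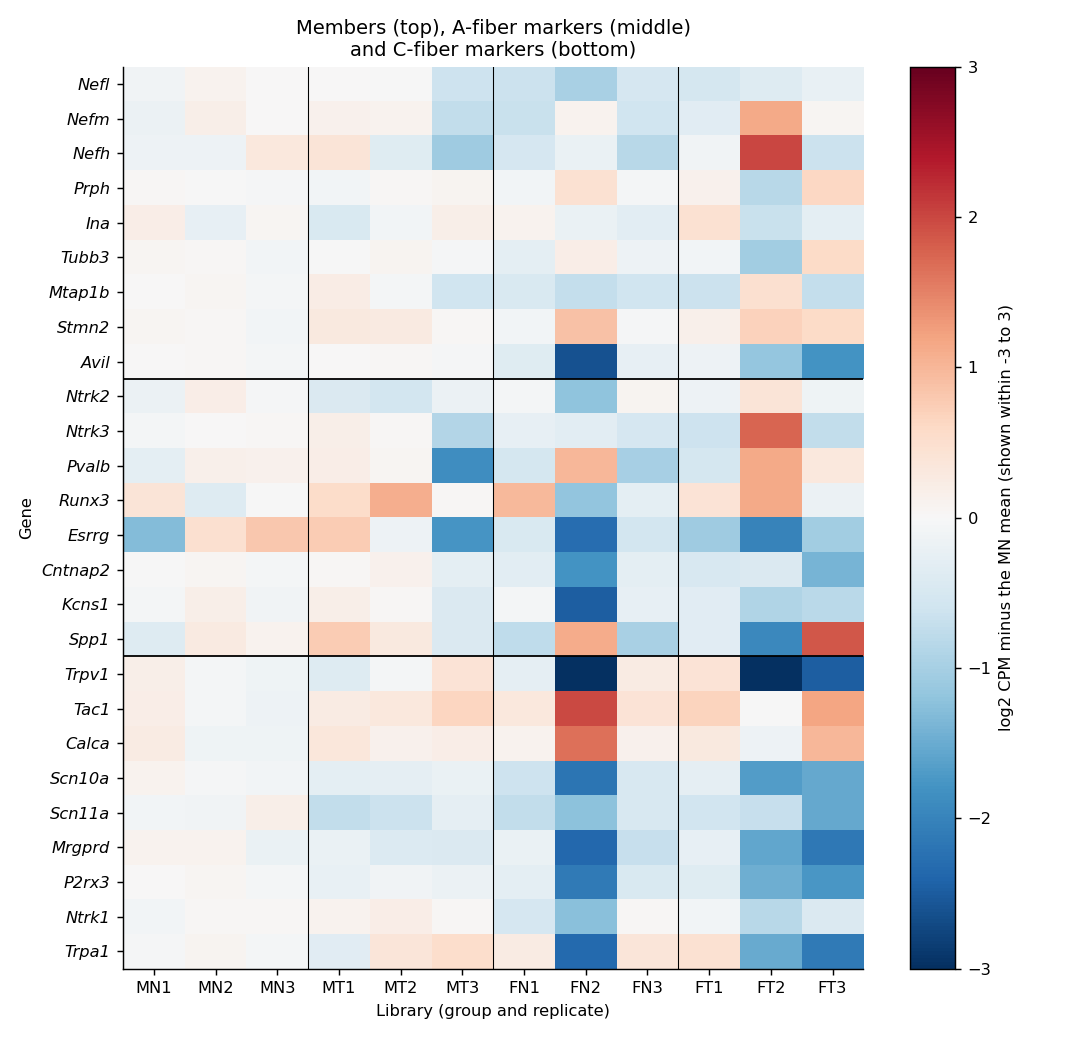
Heat map of log2 CPM minus the MN mean for the 9 genes (top), 8 A-fiber markers (middle) and 9 C-fiber markers (bottom) in the 12 libraries. Nefh and Ntrk3 are both high in FT2 and low in MT3, and Avil is low in FN2, FT2 and FT3 together with Trpv1. The marker lists are mixed, as the A-fiber markers Esrrg (-2.01) and Spp1 (-1.93) are low in FT2. The C-fiber markers Tac1 and Calca are high in FN2 and FT3.

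The tumor comparison in males (MT versus MN) gave small differences between group means for all 9 genes. None was called, as 0% of 13835 genes were by edgeR in this comparison, with 0 of 9 and 59 genes at an unadjusted p under 0.05 and 2 genes called by DESeq2. The log2 fold changes lay between -0.21 ± 0.65 for Nefh and 0.22 ± 0.40 for Stmn2 (SE, n = 3 per group), with -0.16 ± 0.32 for Nefl and 0.025 ± 0.47 for Avil. The MT libraries were split for Nefl, Nefm, Nefh and Mtap1b. In log2 CPM minus the MN mean, MT3 was at -0.61, -0.74, -1.07 and -0.59 for these genes. MT1 was at 0.0021, 0.12, 0.39 and 0.22, and MT2 at -0.0061, 0.10, -0.37 and -0.052. No gene of the 9 met the criteria of the study, which 0.152% of genes tested met, and none had groups that did not overlap, against 13.1% of genes tested. None met the criteria with 10 or 9 libraries either, beside 0.645% and 0.873% of genes tested. In a fit of the 6 male libraries alone the errors were smaller, with Avil at 0.023 ± 0.085, Prph at 0.025 ± 0.078 and Stmn2 at 0.22 ± 0.11 (edgeR adjusted p = 0.75).

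The tumor comparison in females (FT versus FN) gave its largest value for Nefh. Nefh had a mean of 1453 ± 1460.2 CPM in FT and 549.9 ± 119 CPM in FN, a log2 fold change of 1.60 ± 0.67 (edgeR adjusted p = 0.99, unadjusted p under 0.05). It was the 1 gene of the 9 that met the criteria of the study here, which 2.17% of genes tested met. Nefm was at 0.89 ± 0.50, Mtap1b at 0.57 ± 0.42 and Nefl at 0.43 ± 0.32, and the other 5 lay between -0.056 and 0.20. No gene of the 9 was called, as 0% of 13835 genes were, with 528 genes at an unadjusted p under 0.05 and 0 genes called by DESeq2. None had groups that did not overlap, against 2.49% of genes tested.

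The Nefh value rested on FT2 at 3134 CPM, whereas FT1 and FT3 at 726 and 498 CPM were near or within the FN range of 434 to 672 CPM. Without FN2 and FT2 Nefh was at 0.41 ± 0.40 and Nefm at 0.61 ± 0.31. Mtap1b turned to -0.052 ± 0.26 and Avil went to -0.40 ± 0.35. In the same fit Tubb3, Prph and Stmn2 were at 0.63 ± 0.26, 0.58 ± 0.22 and 0.55 ± 0.23 (edgeR adjusted p = 0.33 for each), and Tubb3 then was the 1 gene of the 9 that met the criteria of the study, as did 9.73% of genes tested. For each of these 3 genes FT3 was farther from FN1 and FN3 than FT1 was. Without FT3 as well they were at 0.14 ± 0.13, 0.21 ± 0.11 and 0.22 ± 0.15, Avil was at 0.15 ± 0.12, and none of the 9 met the criteria, beside 0.978% of genes tested.

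Between the tumor groups (FT versus MT), Nefh was again highest, at a log2 fold change of 1.43 ± 0.66 (edgeR adjusted p = 0.41, unadjusted p under 0.05). It met the criteria of the study, as did 8.14% of genes tested, and it was at -0.12 ± 0.36 without FN2 and FT2. Nefm was at 0.80 ± 0.50, Stmn2 at 0.48 ± 0.40, Mtap1b at 0.16 ± 0.42 and Avil at -0.77 ± 0.47. Without FN2 and FT2 Nefm was at 0.023 ± 0.29 and Stmn2 at 0.22 ± 0.21, while Mtap1b turned to -0.55 ± 0.24. Without FT3 as well, Nefm was at -0.29 ± 0.29, Stmn2 at -0.11 ± 0.14 and Mtap1b at -0.61 ± 0.25. Avil was the 1 gene of the 9 whose groups did not overlap, with 425 to 1322 CPM in FT and 1432 to 1526 CPM in MT, against 17.6% of genes tested. The gap rested on FT2 at 663 CPM and FT3 at 425 CPM, since FT1 at 1322 CPM lay close to the MT minimum. With 10 libraries Avil was at -0.78 ± 0.33 and was the 1 gene of the 9 that met the criteria of the study, as did 13.9% of genes tested. With 9 libraries it was at -0.23 ± 0.12 and did not meet them, whereas Mtap1b did, beside 2.07% of genes tested. None of the 9 was called, as 0% of 13360 genes were, with 1610 genes at an unadjusted p under 0.05 and 249 genes called by DESeq2, none of the 9.

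The difference between the sexes in the tumor effect was tested in the same 12-library fit, and 0% of 13835 genes were called by edgeR, with 203 at an unadjusted p under 0.05 and 0 by DESeq2. It was 1.80 ± 0.93 for Nefh (log2, edgeR adjusted p = 1), 1.00 ± 0.70 for Nefm, 0.65 ± 0.60 for Mtap1b and 0.58 ± 0.45 for Nefl. For the other 5 genes it lay between -0.083 and 0.16. Without FN2 and FT2 the values were 0.62 ± 0.51 for Nefh, 0.72 ± 0.41 for Nefm and 0.027 ± 0.33 for Mtap1b, whereas Tubb3 was at 0.60 ± 0.33, Prph at 0.55 ± 0.29 and Avil at -0.42 ± 0.45. Without FT3 as well, Tubb3 was at 0.11 ± 0.15, Prph at 0.18 ± 0.13, Avil at 0.12 ± 0.15 and Nefh at 0.78 ± 0.51. None of the 9 was called in either fit.

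The genes whose profiles over the 12 libraries were most like those of the 3 most spread members were found by the root mean square distance of centered log2 CPM, among 9542 genes with a mean over 10 CPM. Nearest to Avil were Ncdn (neurochondrin) at 0.0634, Clip3 at 0.0803 and Syn1 (synapsin I) at 0.109, where the median gene was at 0.812. Ncdn went from 1336, 1468 and 1331 CPM in MN to 228, 596 and 371 CPM in FN2, FT2 and FT3. Nearest to Nefh were Mtap1a at 0.27, Ntrk3 (the neurotrophin-3 receptor of large A-fiber neurons) at 0.271 and Syne1 at 0.293, all 3 highest in FT2, with Ntrk3 at 155 CPM there and 24.7 to 51.6 CPM elsewhere. Nearest to Nefm were Cygb at 0.151, Dnm1 (the neuronal dynamin of synaptic vesicle uptake) at 0.187 and Cplx2 at 0.200.

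The wider cytoskeleton was followed through 7 lists with 85 genes, 81 to 83 of which were tested. None of these genes was called in any of the 4 group comparisons of the 12-library fit. At an unadjusted p under 0.05 there were 1 in FN versus MN, 0 in MT versus MN, 6 in FT versus FN and 11 in FT versus MT. The median log2 fold change of the lists together was -0.0013, -0.035, 0.14 and 0.25 in these comparisons, against 0.068, 0.0070, -0.064 and 0.072 for all genes tested.

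The other intermediate filaments were led by vimentin (Vim, 167 RPKM over the 12 libraries) and lamin A (Lmna, 97.1 RPKM). Vim, a filament of glial, endothelial and other non-neuronal cells, was the 1 gene of the lists that met the criteria of the study in FN versus MN, at 293, 258 and 262 CPM in MN and 423, 443 and 424.5 CPM in FN (log2 fold change 0.78 ± 0.34, edgeR adjusted p = 0.81). In FN1 and FN3 against MN it was called, at 0.59 ± 0.092 (adjusted p = 0.00275), opposite in sign to the neurofilament chains. It was at 438, 466 and 840.5 CPM in FT. Lmna was at 1969 CPM in FT2 and at 231 to 404 CPM in the other 11 libraries.

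Of the tubulins, Tuba1a (1614 RPKM) and Tubb5 (724 RPKM) were the most abundant. In FN versus MN 10 of 12 tubulins had a value above 0 over the 12 libraries (median 0.31), whereas 9 of 12 were below 0 with 10 libraries (median -0.21) and in the fit of FN1, FN3 and MN alone (median -0.20). In the latter fit Tuba4a was the 1 tubulin called, at -0.39 ± 0.094 (edgeR adjusted p = 0.0305). With 10 libraries no tubulin was called, and Tuba4a was at -0.39 ± 0.28 (adjusted p = 0.98). Of the microtubule-associated proteins and stathmins, with Stmn3 (1485 RPKM) and Mapre3 (68.7 RPKM) the most abundant, Mtap1a at -0.52 ± 0.093 (adjusted p = 0.00669) and tau (Mapt) at -0.50 ± 0.10 (adjusted p = 0.014) were called lower in FN1 and FN3 than in MN.

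The axonal motors carry filaments and vesicles along microtubules, and Klc1 (474 RPKM) and Dync1i1 (96.9 RPKM) were the most abundant of them. All 12 had a value below 0 in FN1 and FN3 against MN (median -0.27, against -0.00085 for all genes tested), of which 2 were called, the dynein heavy chain Dync1h1 at -0.47 ± 0.096 (edgeR adjusted p = 0.0138) and dynactin Dctn1 at -0.38 ± 0.084 (adjusted p = 0.0199). The spectrins, ankyrins and cross-linkers, led by Spna2 (37.6 RPKM) and Spnb2 (31.2 RPKM), were also all below 0 there (11 of 11, median -0.14), with Ank2 called at -0.43 ± 0.089 (adjusted p = 0.0139).

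The gelsolin family and actin genes were led by Tmsb4x (1971 RPKM) and Actb (1895 RPKM). Gelsolin (Gsn) and Scin, actin-severing relatives of advillin, were called higher in FN1 and FN3 than in MN, at 0.58 ± 0.092 (edgeR adjusted p = 0.00327) and 0.85 ± 0.19 (adjusted p = 0.0209), whereas Avil was lower. In FN2 both were low, at 70.1 CPM for Gsn and 1.04 CPM for Scin, against 189.6 to 216 CPM and 12.5 to 15.7 CPM in MN. Of the neurofilament kinases and turnover genes, with Cdk5 (122 RPKM) and Gsk3b (72.1 RPKM) the most abundant, none was called in that fit.

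In all, 9 of the 80 list genes tested in FN1 and FN3 against MN were called (6 lower and 3 higher), beside 5.53% of all genes tested. With the same FN libraries in the fit of 10 libraries none of 81 was called, and 5 had an unadjusted p under 0.05. In FT versus FN over 12 libraries 5 of 83 list genes met the criteria of the study (Ank3, Basp1, Cdk5r2, Dync1i2 and Lmna), beside 2.17% of all genes tested. In FT versus MT 8 of 81 did (Ank3, Basp1, Cdk5r2, Dst, Gsk3a, Lmna, Tmsb10 and Vim), beside 8.14%. FT2 held the highest value of each but Tmsb10 and Vim. Ankyrin-G (Ank3), which anchors the axon initial segment, was at 666 CPM in FT2 and 79.8 to 112 CPM in the other 11 libraries, and dystonin (Dst), which links neurofilaments to actin, was at 1864 CPM in FT2 and 256 to 467 CPM elsewhere.

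The list genes that met the criteria of the study in the tumor comparisons changed with the libraries in the fit. Without FN2 and FT2, 18 of 83 met them in FT versus FN, beside 9.73% of all genes tested, and none of the 18 was among the 5 found over 12 libraries. They were 8 tubulins (Tuba1a, Tuba1b, Tuba1c, Tuba4a, Tubb2a, Tubb2b, Tubb2c and Tubg1), 5 actin and actin-binding genes (Actb, Cfl1, Pfn1, Tmsb10 and Tmsb4x), the stathmins Stmn1 and Stmn3, the growth cone protein gene Gap43, Mtap7 and Vim. All were higher in FT except Mtap7, which was at 71.3 and 27.2 CPM in FT1 and FT3 and at 91.8 and 96.7 CPM in FN1 and FN3. Without FT3 as well, Tmsb10 was the 1 list gene left, beside 0.978%. In FT versus MT 8 of 81 met them with 10 libraries (Ank2, Capg, Lmna, Mtap7, Pfn1, Stmn1, Tmsb10 and Vim), beside 13.9%, and Vim alone with 9, beside 2.07%. Of the 8, Ank2 and Mtap7 were lower in FT and the rest higher. No list gene was called in either fit.

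**Figure D5:**
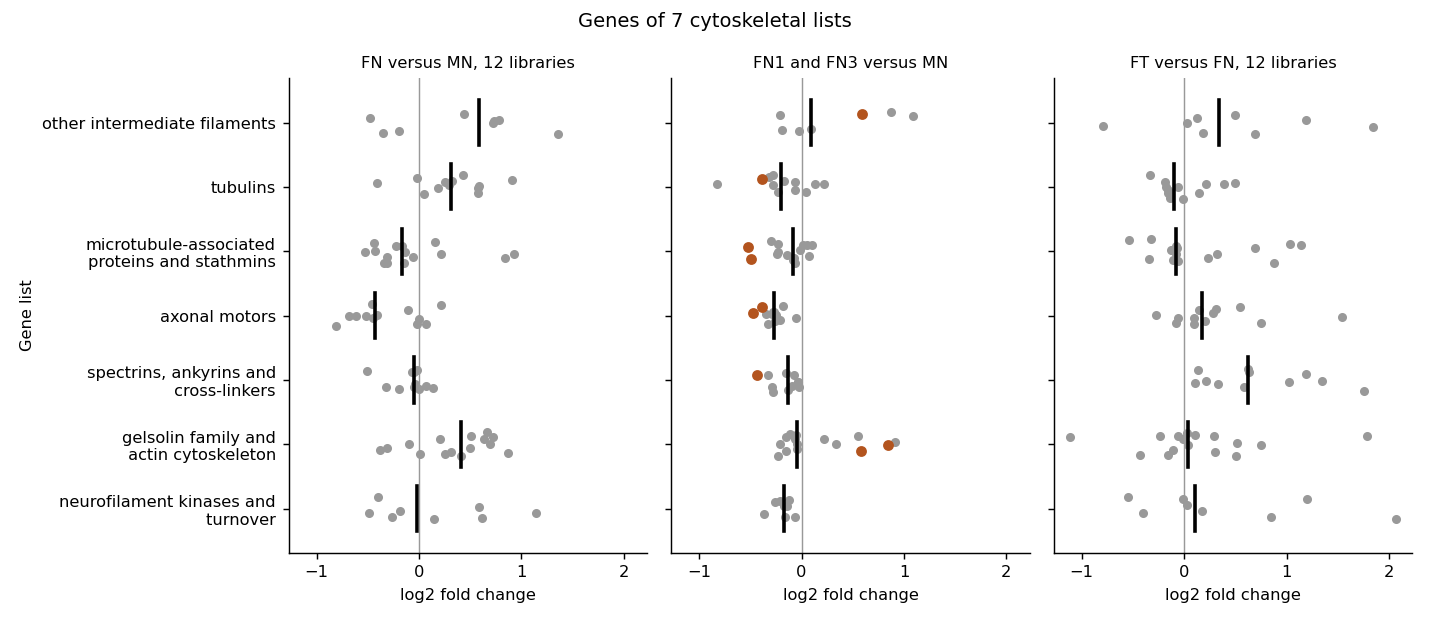
Log2 fold changes of the genes of 7 cytoskeletal lists (points, spread vertically for legibility) with each list's median as a bar. Orange points passed an adjusted p under 0.05, which 9 genes did in FN1 and FN3 versus MN and none did in the 12-library fits.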

How the data were processed

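The data were whole-number read counts per gene in 12 libraries made with SMART-seq2 and sequenced as 50-base single reads. Per the labels, the authors used CASAVA 1.8.2, TopHat2, SAMtools and HTSeq with mm9, and deposited raw counts without normalization. The annotation and strand setting were not given in the sources used here. Rows that name no gene held 76.3% to 88.8% of all counts and were left out. CPM were computed over gene rows, and RPKM with GENCODE M1 exon lengths (21627 of 22609 symbols matched). Group means were fitted in R 4.3.3 by edgeR 4.0.16 (filterByExpr with minimum count 10 and total 15, TMM, 4 group means over 12 libraries, quasi-likelihood F test, Benjamini-Hochberg adjustment). Log2 CPM used a prior count of 2. Alternatives used DESeq2 1.42.0 and limma 3.58.1, and the fits were tested on simulated data. Samples were grouped by their labels. The 9 genes and the lists were chosen with earlier results of these data known. Text names all 9 genes, list genes that passed a call or the criteria of the study, the 2 most abundant genes of each list, the 3 profiles nearest to each of the 3 most spread members, and markers where a library stood apart. The 4 markers Pvalb, Spp1, Ntrk3 and Cntnap2 and the 5 C-fiber markers of the normal groups were named after their values were seen. So were the pan-neuronal and non-neuronal markers that did not overlap, Gsn and Scin in FN2, and the A-fiber markers in MT3.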

Additional observations from a re-analysis of the deposited data

How the results depend on the processing

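None of the 9 genes was called in any comparison with DESeq2, with DESeq2 size factors in edgeR, without the filter on low counts, with only the 2 groups compared, with the 10 or the 9 libraries, or with any 1 library left out (0 members in each). In FN versus MN limma-voom with quality weights called 3 and the fit of FN1 and FN3 with MN alone, added after seeing the data, called 5. Over all genes, FN versus MN gave 20 calls with DESeq2, 800 with limma-voom, 54 with 9 libraries, 728 in the added fit and 0 to 1 with 1 library left out. MT versus MN gave 2 with DESeq2, 47 with limma-voom, 6 with the 2 groups alone and 3 with 9 libraries. FT versus MT gave 249 with DESeq2, 1 with 9 libraries and 0 to 755 with 1 library left out, the 755 being without FT1. Nefh in FT versus MT turned to -0.1218 with 10 libraries and to -0.1182 with the 2 groups alone less FT2, and ran from -0.1247 to 1.9324 with 1 library left out. Of the 45 fold changes of the 9 genes, 14 kept their sign in every alternative. The block for the replicate number gave 0 members called in each comparison. The labels name no animal or day shared by same-numbered samples, and whether a day was shared is not known. Correlations of same-numbered deviations ran from -0.36 to 0.57, and 4 of 12 libraries correlated best with their own number. Mean MN shares without exon length were 40.1% for Nefl, 19.3% for Nefm, 8.72% for Nefh and 31.3% for Prph. With a Nefm length of 3401 bases, less the exon opposite Nefl, they were 32.4% for Nefl, 15.5% for Nefm and 45.7% for Prph. The Nefl length stayed at 3380 bases there, with the shared stretch included. With 3 libraries a group, and 133 to 70109 reads per gene, library spread and not counting error limited precision.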

Other observations

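Together the 9 genes took 1.85% to 2.76% of all gene reads, and the 5 filament genes took 0.663% to 1.13%. The share of the 9 was 2.34% to 2.49% in MN, 2.59% and 2.44% in MT1 and MT2, 1.92% in MT3, 1.85%, 2.13% and 1.87% in FN, and 1.99%, 2.76% and 2.37% in FT. FT2 thus had the highest share although its Prph, Tubb3 and Ina were the lowest of the 12, with Mtap1b alone at 10509.5 CPM. After Prph and Tubb3, the pairs with the most alike profiles were Nefl and Mtap1b (root mean square distance 0.304 in log2 CPM over 12 libraries) and Nefm and Mtap1b (0.358), and the least alike were Nefh and Avil (1.19).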
